A study of Mus musculus with 15 samples.

Results

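The transcripts of 10 glycolysis enzyme genes, Gapdh, Aldoa, Pgk1, Pgam1, Tpi1, Eno1, Ldha, Ldhb, Gpi1 and Hk1, were followed in extracellular vesicles (EVs) from mouse blood. The genes were taken by symbol out of the 43472 gene symbols counted in every library, and all 10 symbols were present. EVs are membrane particles that cells release and that carry RNA of their cells of origin. Libraries came from 3 samples of WT (C57BL/6) mice, 6 of dystrophic mice that lack Sgcb, a gene of the sarcoglycan complex of the muscle membrane, and 6 of hypertrophic mice. The genotype labels call the hypertrophic mice MAGIC F1, while the methods of the study name Mstn-null mice for the RNA sequencing, so only the condition is used here. The animals were aged 3 to 6 months and were euthanized with ketamine, after which blood was drawn by heart puncture. No other agent is named for them, and EVs of 2 to 3 animals were pooled for each sample. The source is given as plasma in the methods and as serum in the sample labels. Polyadenylated RNA was preamplified before library preparation. Single libraries are treated as the replicates, and p-values measure the spread between them. That spread holds differences between pooled samples and differences from amplification together. Whether samples of a condition shared animals is not stated.

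Glycolysis is the cytosolic pathway that splits glucose into pyruvate and yields ATP without oxygen. Red blood cells have no mitochondria and live on it, platelets and white blood cells use it heavily, and skeletal muscle runs on it during intense work. Its enzymes are among the more abundant proteins of most cells, and Gapdh is a common reference gene in expression assays. Hk1 phosphorylates glucose, Gpi1 converts glucose phosphate into fructose phosphate, and Aldoa cleaves the bisphosphorylated sugar. Tpi1 interconverts the resulting triose phosphates. Gapdh, Pgk1, Pgam1 and Eno1 carry out the later steps, in which ATP is regained. Ldha and Ldhb encode the subunits of lactate dehydrogenase, which converts pyruvate to lactate and back.

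WT replicate 1 had the fewest reads counted on genes, 27227, and dystrophic replicate 6 the most, 32563362, with medians of 601506 in WT-, 2419660 in dystrophic- and 3513267 in hypertrophic-derived libraries. Levels are given as CPM, the reads on a gene scaled to 1000000 such reads in the library. A count of 0 allows up to 3 reads, which was 110 CPM in WT replicate 1 and at most 9.13 CPM in the others. Such limits and the intervals of levels cover counting error only. The transcripts of the EV tetraspanins Cd9, Cd63 and Cd81 summed to between 3924 and 33774 CPM. Most of this was Cd9, found in all 15 libraries at a mean of 12204 CPM. Cd63 averaged 73.5 CPM with 0 reads in 5 libraries, and Cd81 averaged 170 CPM with 0 reads in 4. Mstn had 0 reads in all libraries. Sgcb had 0 reads in every WT- and dystrophic-derived library and in 5 hypertrophic-derived ones. Title and count numbers were crossed between dystrophic and hypertrophic samples for 6 libraries (dystrophic replicates 4, 5 and 6, hypertrophic replicates 1, 2 and 3), so results were also obtained with these exchanged or left out. The remaining hypertrophic-derived library, replicate 3, is among these 6 and had 695 Sgcb reads, 365 CPM. The exchange would place it among the Sgcb-null samples, while under the labels no dystrophic-derived library had a read of the gene.

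The sequences of the genes bear on how their reads could be counted, since several have near-identical copies elsewhere in the genome. The principal coding transcript of each gene (GENCODE M21, mm10) was divided into all windows of 50 bases, the read length, and each window was looked for in the transcripts of other genes. The first 100 coding bases are shown for 5 genes that differ in this respect, 5′ to 3′, with bases in capitals where they lie in a window found in another gene.
Gapdh: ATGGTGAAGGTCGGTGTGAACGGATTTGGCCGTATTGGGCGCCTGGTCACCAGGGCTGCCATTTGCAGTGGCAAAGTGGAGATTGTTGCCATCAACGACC
Pgk1: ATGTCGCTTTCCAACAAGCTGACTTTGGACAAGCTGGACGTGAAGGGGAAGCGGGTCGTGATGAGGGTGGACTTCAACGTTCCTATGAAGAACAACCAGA
Pgam1: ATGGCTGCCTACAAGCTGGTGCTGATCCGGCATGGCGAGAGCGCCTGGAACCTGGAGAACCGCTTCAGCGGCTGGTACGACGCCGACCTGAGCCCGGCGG
Tpi1: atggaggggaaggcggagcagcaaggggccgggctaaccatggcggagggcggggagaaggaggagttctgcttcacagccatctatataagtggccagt
Hk1: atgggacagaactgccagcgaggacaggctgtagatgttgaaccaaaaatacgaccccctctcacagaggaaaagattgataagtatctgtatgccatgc
In Gapdh (chr6:125161715-125166467, minus strand), Pgk1 (chrX:106187100-106203699, plus strand) and Pgam1 (chr19:41911923-41918660, plus strand), every coding window, 100%, was found in another gene. The matching genes were mostly processed copies, with Gm7336 holding 82.5% of the Gapdh windows, Pgk1-rs7 67.9% of the Pgk1 windows and Pgam1-ps2 41.5% of the Pgam1 windows, untranslated parts included. In Tpi1 (chr6:124810586-124814296, minus strand) 13.7% of the coding windows were shared, and in Hk1 (chr10:62268855-62379908, minus strand) 0%.

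Over whole transcripts the shared part was 82.5% in Gapdh, 72.2% in Eno1, 68.0% in Pgk1, 41.5% in Pgam1, 27.0% in Ldhb, 25.3% in Gpi1, 17.1% in Ldha, 13.9% in Aldoa, 7.51% in Tpi1 and 0% in Hk1. The deposited tables keep reads that align at more than 1 place on a separate line, outside the gene counts. That line held between 42.1% and 63.1% of the sum of gene reads and not uniquely aligned entries. The levels of Gapdh, Eno1, Pgk1 and Pgam1 therefore rest on less of their transcript than those of the other genes. The windows of a gene not found elsewhere are the same for every library. Which of them supplied reads in a library is not known. Reads were counted on some copies too. The copies of Pgk1, Pgam1 and Aldoa listed in the tables had 0 reads in all libraries. The 150 listed genes that shared at least 1% of the Gapdh windows had 5418 reads against 24392 on Gapdh. Genes sharing Gapdh windows include some named as other genes, such as Vmn2r60 (21.6%) and Peli2 (6.13%). Part of the 5418 reads may thus lie outside the shared windows.

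Ldha and Ldhb reads could be told apart. Of all windows of the coding sequences compared, the most alike pair, coding bases 316 to 365 of Ldha and 319 to 368 of Ldhb, differed at 6 of 50 bases, shown here in capitals, and the median Ldha window differed from its closest Ldhb window at 14 bases.
Ldha: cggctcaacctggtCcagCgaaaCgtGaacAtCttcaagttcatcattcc
Ldhb: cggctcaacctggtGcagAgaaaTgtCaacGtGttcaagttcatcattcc
Other overlaps concern the opposite strand. Gapdh overlaps Iffo1, Aldoa overlaps Fam57b, Tpi1 overlaps Spsb2, Gpi1 overlaps Gm26762 and Hk1 overlaps Hk1os. Whether the counting used the strand is not given in the sources used here, so reads of these pairs may not be told apart.

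**Figure D1:**
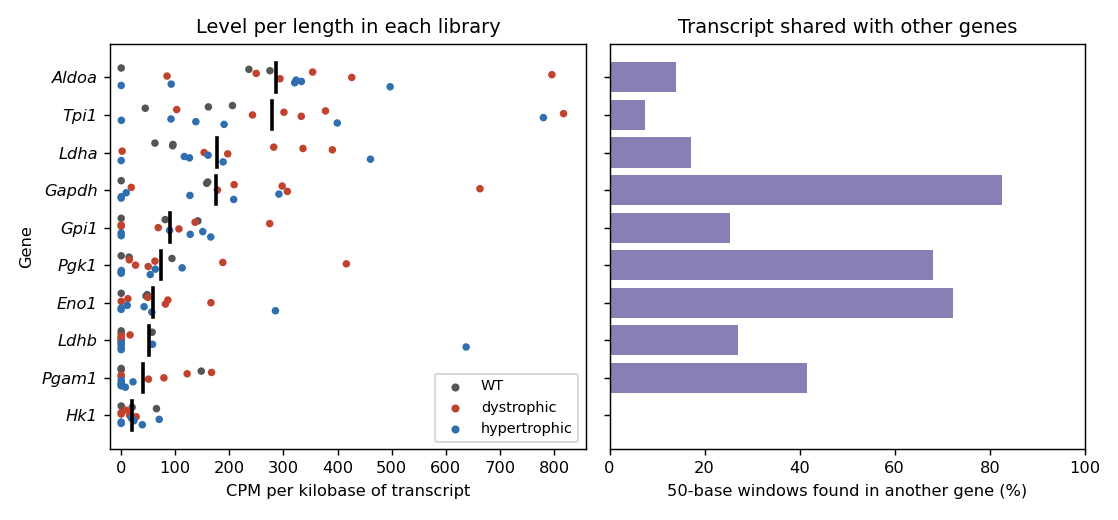
Left, CPM per kilobase of the principal transcript for each gene, with 1 point per library coloured by condition and a black line at the mean of 15 libraries. Right, percent of the 50-base windows of that transcript found in another gene, from 0% in Hk1 to 82.5% in Gapdh, the 4th gene by level per length.

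Glycolysis transcripts were part of the EV RNA in all 15 libraries. Together the 10 genes took between 0.0441% and 0.321% of the reads on genes. Of the 150 pairs of a gene and a library, 103 had at least 10 reads, 6 had 1 to 9 reads and 41 had none, which is 27.3%. Of the pairs with a read, 79, which is 72.5%, lay at 100 CPM or more, and 4 lay under 10 CPM. In WT replicate 1 a single read was already 36.7 CPM. The same shares over all genes are not given here, so whether these values are particular to the 10 genes was not tested.

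**Figure D2:**
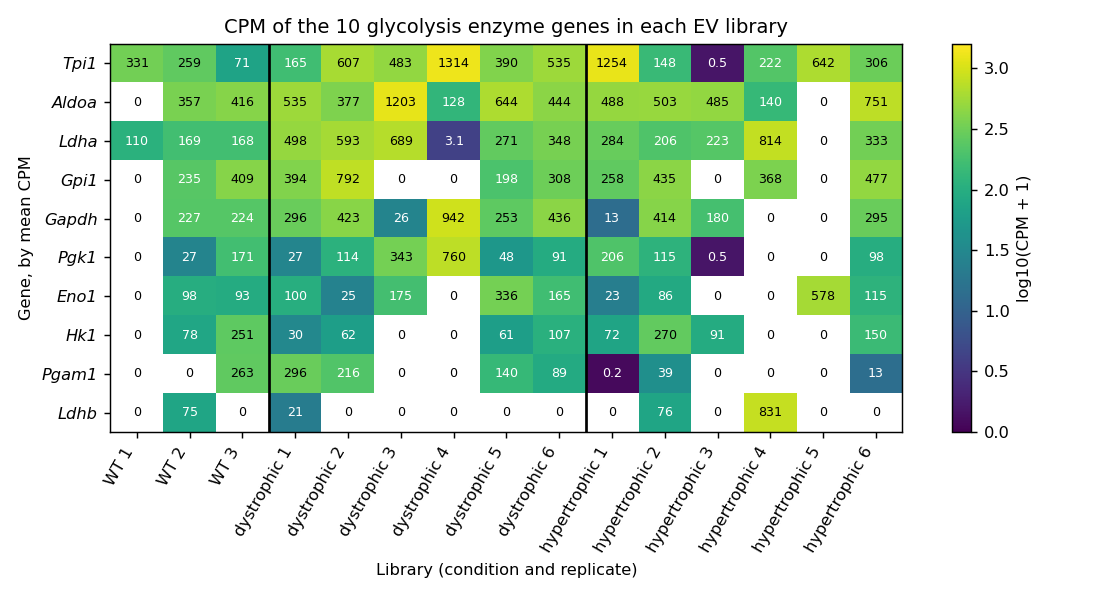
CPM of each gene (rows, ordered by mean CPM) in each library (columns, grouped by condition), coloured on a log10(CPM + 1) scale and printed in the cells, with white cells for genes without a read. Tpi1 had reads in all 15 libraries, Ldhb in 4, and libraries of 1 condition held different genes at 0.

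Per kilobase of transcript, the level averaged 285 ± 203 CPM for Aldoa, 279 ± 241 for Tpi1, 178 ± 136 for Ldha, 175 ± 176 for Gapdh, 89.5 ± 80.6 for Gpi1, 73.1 ± 108 for Pgk1, 59.0 ± 77.0 for Eno1, 51.3 ± 163 for Ldhb, 39.7 ± 59.9 for Pgam1 and 20.3 ± 22.7 for Hk1 (SD, n = 15). Neighbours in this order differed by less than the larger of their SDs in every case. Dividing each mean CPM by the number of windows not found in other genes changed the order. Where in a transcript the reads lay was not known, so this scale takes all of them as lying in those windows. On that scale Gapdh came first at 1036 CPM per 1000 windows, ahead of Aldoa at 343 and Tpi1 at 311, and Pgk1 moved from 6th to 4th place at 234.

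Among the genes of the upper, ATP-consuming steps, Aldoa was found in 13 libraries. Its level was 0, 357 and 416 CPM in WT replicates 1 to 3, ran from 128 over a median of 489 to 1203 CPM in the dystrophic-derived libraries, and from 0 over 487 to 751 CPM in the hypertrophic-derived ones. The ranges of the 3 conditions overlapped, and the highest value was that of dystrophic replicate 3. Gpi1 (chr7:34201330-34230336) was at 0, 235 and 409 CPM in WT-derived libraries, between 0 and 792 CPM with a median of 253 in dystrophic- and between 0 and 477 CPM with a median of 313 in hypertrophic-derived libraries. It had 0 reads in 5 of 15 libraries and was at 198 CPM or more in the others. Among these 5 was WT replicate 1, where a count of 0 allows up to 110 CPM. Aldoa likewise had either 0 reads or at least 128 CPM in every library. Hk1 was at 0, 78.1 and 251 CPM in WT-, at most 107 CPM in dystrophic- and at most 270 CPM in hypertrophic-derived libraries, and it too was at 0 in 5 libraries.

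Tpi1 was the only member detected in all 15 libraries. Its level was 331, 259 and 71.5 CPM in WT replicates 1 to 3, from 165 to 1314 CPM with a median of 509 in dystrophic-derived libraries, and from 0.525 to 1254 CPM with a median of 264 in hypertrophic-derived libraries. The value of 0.525 CPM, in hypertrophic replicate 3, was a single read. In WT replicate 1, the shallowest library, 331 CPM were 9 reads, and the other 3 of its 12 glycolysis reads fell on Ldha. All 3 conditions overlapped only between 165 and 331 CPM, and no WT-derived library was above that.

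Among the later, ATP-yielding steps, Gapdh was at 0, 227 and 224 CPM in WT-derived libraries, between 26.5 and 942 CPM with a median of 359 in dystrophic-derived ones, and between 0 and 414 CPM with a median of 96.8 in hypertrophic-derived ones. It was found in 12 libraries and at 0 in WT replicate 1 and hypertrophic replicates 4 and 5. Pgk1 was at 0, 26.6 and 171 CPM in WT-, 27.3 to 760 CPM (median 103) in dystrophic- and 0 to 206 CPM (median 49.3) in hypertrophic-derived libraries. Gapdh and Pgk1, like Tpi1, had their highest level in dystrophic replicate 4, where Gpi1, Pgam1, Eno1 and Hk1 had 0 reads. That library had reads on 1103 genes, the fewest of the dystrophic-derived ones, and is among those with crossed numbers.

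Pgam1, the phosphoglycerate mutase of most tissues, was at 0, 0 and 263 CPM in WT-derived libraries. It was between 0 and 296 CPM with a median of 115 in dystrophic-derived libraries and did not pass 38.8 CPM in any hypertrophic-derived library. The 4 dystrophic-derived libraries in which it was found were above all 6 hypertrophic-derived ones, and the remaining 2 were at 0, so the groups overlapped. Eno1, the enolase of most tissues, was at 0, 97.6 and 93.1 CPM in WT-, at 0 to 336 CPM (median 133) in dystrophic- and at 0 to 578 CPM (median 54.2) in hypertrophic-derived libraries.

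The 2 lactate dehydrogenase genes behaved differently in detection. Ldha, the subunit that prevails in muscle, was found in 14 libraries, at 110, 169 and 168 CPM in WT-derived ones, 3.11 to 689 CPM (median 423) in dystrophic- and 0 to 814 CPM (median 253) in hypertrophic-derived ones. Ldhb, the subunit that prevails in heart, was found in 4 libraries, at 74.7 CPM in WT replicate 2, 21.4 in dystrophic replicate 1, 75.5 in hypertrophic replicate 2 and 831 in hypertrophic replicate 4. In that last library Ldhb was the leading gene, with 35.0% of the glycolysis reads, and Ldha stood at 814 CPM beside it, while Gapdh, Pgk1, Pgam1, Eno1 and Hk1 had no read.

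The gene with the most reads, a measure that also grows with transcript length, changed from library to library. It was Aldoa in 8 libraries, Tpi1 in 5, and Gpi1 and Ldhb in 1 each. The libraries showed 9 different sets of detected genes, and all 10 genes were found in 2 of them, dystrophic replicate 1 and hypertrophic replicate 2.

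Over the 45 pairs of genes, Spearman's rho across the 15 libraries had a median of 0.19 and ran from -0.48, for Tpi1 with Ldhb, to 0.72, for Pgam1 with Gpi1. These values describe libraries that share depth and many zeros. The number of the 10 genes detected followed the number of all genes detected, with a rho of 0.86, more closely than it followed depth, with a rho of 0.61. Compared with the summed CPM of the 10 genes, the most similar profiles among 1269 genes found in at least 10 libraries were Tmem134 (rho 0.88), Elof1 and Fam120a (0.85 each), Rplp2 (0.80) and Ube2q1 (0.79).

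Many zeros stood where other libraries of the same condition predicted reads. A pair was taken as predicted when the median CPM of the other libraries of its condition, at the library's depth, gave at least 10 reads. Of 116 such pairs of the 10 genes, 22 had 0 reads, which is 19.0% (95% Wilson interval 12.9% to 27.0%). This interval takes the pairs as independent. Pairs of the same library are not, and several zeros came from the same libraries, so it is likely too narrow. Over all 13281 genes with a read in any library, 42.3% of 37157 such pairs were at 0, and Poisson counting alone would give 2.34e-05% for the 10 genes. Pgam1 had no read in WT replicate 2, where 1016 were predicted. That prediction rests on the only other WT-derived libraries, with 0 CPM in WT replicate 1 and 263 CPM in WT replicate 3. Gpi1 had none in dystrophic replicate 3, against 825 predicted, or in hypertrophic replicate 3, against 702. Without the 3 libraries under 500000 reads, 12 of 106 pairs, 11.3%, were at 0.

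To compare the conditions, the 10 genes were first summed. The summed level was 441, 1524 and 2066 CPM in WT replicates 1 to 3, from 2340 to 3209 CPM in the 6 dystrophic-derived libraries and from 980 to 2598 CPM in the 6 hypertrophic-derived ones. The means were 1344 ± 828 CPM (SD, n = 3), 2750 ± 391 CPM (SD, n = 6) and 2001 ± 710 CPM (SD, n = 6). Every dystrophic-derived library was above every WT-derived one, and the hypertrophic-derived libraries overlapped both groups. The 441 CPM of WT replicate 1 are 12 reads, with a 95% Wilson interval of 252 to 770 CPM, and without it the WT mean was 1795 CPM.

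The separation of the sum depended on the scaling. With effective library sizes from the trimmed mean of M-values (TMM), 4 of 6 dystrophic-derived libraries were above all WT-derived ones. With the 6 crossed libraries exchanged, it was 5 of 6, and with Tpi1 and Ldhb left out of the sum, a choice made after the values were seen, 3 of 6. Relative to reads without mitochondrial and hemoglobin genes it was 6 of 6, with 2801 CPM as the lowest dystrophic- and 2792 CPM as the highest WT-derived value. No single gene of the 10 had all dystrophic-derived libraries above all WT-derived ones, which 0.479% of the 6887 genes tested had. In bulk EV RNA, fewer EVs of a cell type and less RNA per EV cannot be told apart.

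**Figure D3:**
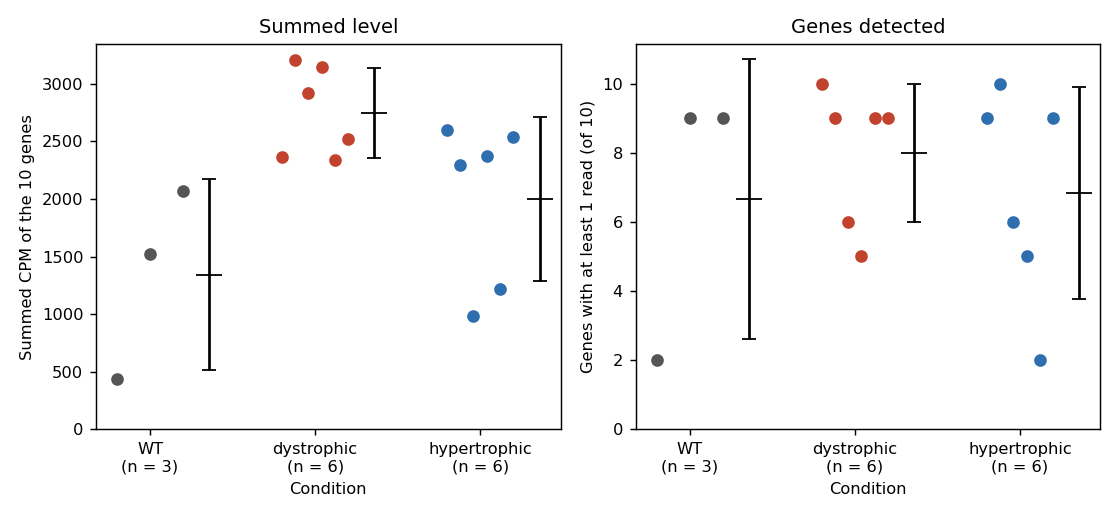
Summed CPM of the 10 genes (left) and number of the 10 genes with at least 1 read (right) for each library, by condition, with bars for the mean ± SD. The 6 dystrophic-derived libraries lie between 2340 and 3209 CPM and the 3 WT-derived ones at 2066 CPM or less, while the numbers of genes detected overlap.

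The number of genes detected was 2, 9 and 9 in WT-derived libraries, from 5 to 10 in dystrophic- and from 2 to 10 in hypertrophic-derived libraries. The means of 6.67 ± 4.04 (SD, n = 3), 8 ± 2 (SD, n = 6) and 6.83 ± 3.06 (SD, n = 6) differed by less than these SDs. The lowest numbers were those of WT replicate 1, with 27227 reads, and hypertrophic replicate 5, with 328710 reads. At the smallest depth, 27227 reads, the expected means were 6.32, 7.26 and 5.85.

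Markers of the cells that shed EVs into blood were set beside the sum. The 5 erythroid markers found in the tables, among them Hbb-bs and Alas2, all had reads and summed to 16961 to 66588 CPM in WT-, 40742 to 116164 CPM in dystrophic- and 24940 to 68714 CPM in hypertrophic-derived libraries. The 5 platelet markers, among them Pf4 and Ppbp, summed to 18354 to 28281, 9291 to 19884 and 14290 to 32865 CPM. The 5 leukocyte markers summed to 1332 to 2681, 1180 to 3275 and 1535 to 5179 CPM. Of the 6 muscle markers 5 had reads, with sums of at most 295, 143 and 281 CPM, and Myh4, the fast myosin of glycolytic fibres, had none. The 4 liver markers reached at most 65.8, 156 and 2181 CPM. At the median, the platelet sum was thus lower and the erythroid sum higher in dystrophic- than in WT-derived libraries. Among the platelet markers only Gp9 went the other way, with medians of 1199 CPM in dystrophic- and 881 CPM in WT-derived libraries. Across the 15 libraries, Spearman's rho with the glycolysis sum was 0.04 for the erythroid and -0.52 for the platelet sum. It was -0.14 for the leukocyte, 0.07 for the muscle and -0.14 for the liver sum. The part of any of these cell types in the glycolysis sum was not tested.

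Gene by gene, edgeR's quasi-likelihood test with Benjamini-Hochberg adjustment over 6887 genes was applied to all 15 libraries. Of the 10 glycolysis genes, 0 were called between dystrophic- and WT-derived libraries at an adjusted p under 0.05, 0 between hypertrophic- and WT-derived libraries and 0 between hypertrophic- and dystrophic-derived libraries. The share of all genes called was 0.0145%, 0.029% and 0.0145%, that is 1, 2 and 1 genes. At an unadjusted p under 0.05, 0 of the 10 genes were found in each comparison, both by edgeR, where 2.02%, 8.02% and 12% of all genes were, and by DESeq2, where 16.5%, 19% and 10.8% were. DESeq2 called 0 of the 10 as well, against 933, 1031 and 243 of all genes, which is 13.5%, 15% and 3.53%. The edgeR test gives no standard error (SE). The SE used here is the absolute log2 fold change divided by the square root of the F statistic, an approximation. For the 10 genes it ran from 1.31 to 3.42 on the log2 scale.

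Between dystrophic- and WT-derived libraries, the fitted log2 fold changes of the 10 genes had a median of 0.83, against 1.38 over all genes tested, and 8 of 10 were above 0. Tpi1 had the highest value, 1.48 (SE 1.76, adjusted p = 0.867), and Ldhb the lowest, -2.94 (SE 3.11, adjusted p = 0.801). Pgk1 stood at 1.29 (SE 2.57), Ldha at 1.23 (SE 1.98) and Gapdh at 1.14 (SE 2.004). Hk1, the entry enzyme, was with Ldhb on the other side, at -1.42 (SE 2.59). Single libraries moved these values. With 1 library left out, Hk1 ran from -2.09 (without dystrophic replicate 6) to 0.08 (without WT replicate 3) and Pgk1 from 0.31 (without dystrophic replicate 4) to 3.51 (without WT replicate 3). Gapdh was at 0.57 without WT replicate 1, and Ldhb changed sign without WT replicate 2, the only WT-derived library with its reads. Scaling by library size without TMM moved the median of all genes from 1.38 to 1.57 in this comparison, from 0.66 to 1.02 between hypertrophic and WT and from -0.52 to -0.37 between hypertrophic and dystrophic, and the 10 genes, with medians of 1.08, 0.43 and -0.41, stayed below it each time.

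Between hypertrophic- and WT-derived libraries the median of the 10 genes was 0.01, against 0.66 over all genes, with 5 genes on each side of 0, or 7 above it without TMM. Pgam1 had the lowest value, -3.44 (SE 2.71, adjusted p = 0.529), and Ldhb the highest, 1.38 (SE 3.42, adjusted p = 0.996). Pgam1 changed sign without WT replicate 3, the only WT-derived library with its reads, and Ldhb stood at -0.80 without hypertrophic replicate 4. Between hypertrophic- and dystrophic-derived libraries the median was -0.70, against -0.52 over all genes, and 8 of 10 were below 0. Pgam1 was again the lowest, at -3.73 (SE 2.52, adjusted p = 0.9998), and Ldhb, through hypertrophic replicate 4, the highest at 4.32 (SE 3.0, adjusted p = 0.9998). Without that library Ldhb stood at 2.12. These comparisons share libraries and are not independent of each other.

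**Figure D4:**
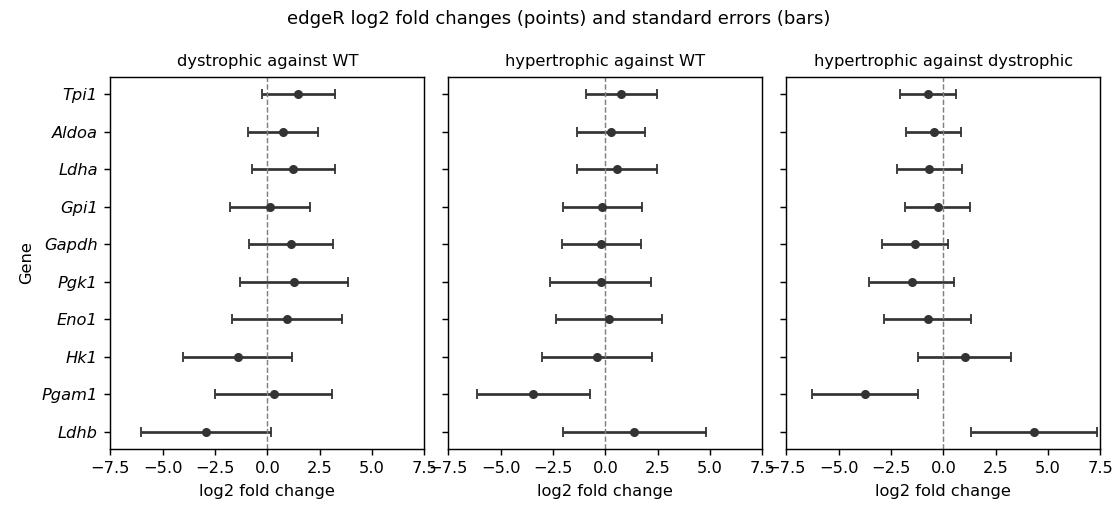
Fitted edgeR log2 fold change (points) and its approximate standard error, derived from the F statistic (bars), for each of the 10 genes in the 3 comparisons. A dashed line marks 0. Standard errors are between 1.31 and 3.42, and Pgam1 and Ldhb lie farthest from 0 between hypertrophic- and dystrophic-derived libraries.

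The remaining genes of glycolysis showed which isozymes the EV RNA held. Of 18 further glycolysis genes, 11 had a read in any library, and 7, among them Gapdhs, Pgk2, Pgam2, Pklr and Ldhc, had none. Gapdhs, Pgk2 and Ldhc are sperm forms, Pgam2 is the muscle mutase, and Pklr encodes the pyruvate kinase of liver and red blood cells. Eno3, the muscle enolase, was found in 6 libraries and averaged 18.2 ± 38.2 CPM per kilobase, against 59.0 ± 77.0 for Eno1 (SD, n = 15). Pfkm, the muscle phosphofructokinase, was found in 4 libraries and Pfkl, the liver form, in 7.

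Pkm and Bpgm, too, were found nearly throughout. Pkm, the pyruvate kinase that makes pyruvate at the end of the pathway, was found in 14 libraries at a mean of 325 ± 288 CPM in WT- (SD, n = 3), 642 ± 301 in dystrophic- and 955 ± 736 in hypertrophic-derived libraries (SD, n = 6 each). Per kilobase it averaged 289 ± 224 CPM (SD, n = 15), next to 285 ± 203 for Aldoa. Bpgm, which makes the bisphosphoglycerate that lowers the oxygen affinity of hemoglobin in red blood cells, was found in all 15 libraries at 188 ± 201, 624.6 ± 351 and 553 ± 326 CPM, and averaged 229 ± 154 CPM per kilobase (SD, n = 15). Its fitted log2 fold change between dystrophic- and WT-derived libraries was 1.46 (SE 1.67, adjusted p = 0.851), and that of Pkm was 0.69 (SE 1.48, adjusted p = 1).

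Around the pathway, the glucose transporter Slc2a3 of platelets, neurons and white blood cells was found in 12 libraries, at 124 ± 115 CPM in WT-, 215 ± 129 in dystrophic- and 624.8 ± 441 in hypertrophic-derived libraries. Slc2a1, the transporter of most cells, had 10 reads in 1 library, and Slc2a4, the insulin-responsive transporter of muscle and fat, had none. Of the 4 glycolysis regulators in the tables, 3 had reads and Pfkfb1 had none. Their sum did not pass 94.98 CPM in WT-, 106 CPM in dystrophic- and 521 CPM in hypertrophic-derived libraries.

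At the entry of pyruvate into mitochondria, Mpc1, a subunit of the pyruvate carrier, averaged 172 ± 204, 51.0 ± 61.6 and 116 ± 163 CPM in WT-, dystrophic- and hypertrophic-derived libraries, and Pdha1, a subunit of pyruvate dehydrogenase, 33.5 ± 28.7, 254 ± 313 and 70.3 ± 88.6 CPM. All 10 genes of this group had a read in some library. The pentose phosphate pathway, which branches from glycolysis, was led by Taldo1, found in all 15 libraries at 1189 ± 76.3, 1279 ± 1013 and 2132 ± 889 CPM. Per kilobase this transaldolase averaged 1304 ± 751 CPM (SD, n = 15), above the mean of every glycolysis gene. G6pdx, the first enzyme of that branch, was found in 14 libraries at 37.8 ± 20.1, 36.2 ± 42.6 and 127 ± 132 CPM, and Tkt, the transketolase, in 10 at 42.9 ± 72.9, 114 ± 62.4 and 97.7 ± 120 CPM. Pgls and Pgd were each found in 9 libraries, with means over all libraries of 49.6 and 32.5 CPM.

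Of the 26 pathway genes with enough reads for the test, edgeR called 0 in each comparison, with 1, 3 and 2 genes at an unadjusted p under 0.05 between dystrophic and WT, hypertrophic and WT, and hypertrophic and dystrophic. These are 3.85%, 11.5% and 7.69% of the 26, beside 2.02%, 8.02% and 12% of all genes. The genes were Pdk1 in the first, Pdk1, Pdhb and Pfkp in the second and Pdhb and Pfkp in the third. DESeq2 called 2, 3 and 1 of the 26, or 7.69%, 11.5% and 3.85%, beside 13.5%, 15% and 3.53% of all genes, among them Pfkm in the first and the second and Pfkp in the second and the third. The genes named here were chosen because they were called or had a low p, after their values were seen. Each gene named was at 0 in all libraries of 1 of the conditions compared, so their fitted fold changes are not given. Pfkp was found in 1 of 3 WT-, 4 of 6 dystrophic- and 0 of 6 hypertrophic-derived libraries.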

How the data were processed

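EV RNA of 15 samples was measured by RNA sequencing with single reads. The authors aligned the reads with TopHat to mm10 and deposited raw counts per gene symbol. TopHat, HTSeq and DESeq are named in the submitters' processing notes, and the annotation and the counting settings are not given in the sources used here. Labels and methods also differ on the library kit and the sequencer. From these counts, 5 summary lines without a gene (57.9% to 99.2% of the entries) were left out. Samples were grouped by genotype label, and replicate numbers only name libraries.

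CPM were computed over all gene symbols. Tests used edgeR 4.0.16 in R 4.3.3 (TMM, filterByExpr, quasi-likelihood fit to 15 libraries with 3 conditions, Benjamini-Hochberg adjustment), with DESeq2 1.42.0, its missing adjusted p-values (643 per comparison) left missing, and other scalings, filters and sample choices as alternatives. The procedure was also run on simulated data, and no outcome of that run is used here. In edgeR, the spread between these libraries relative to the mean (biological coefficient of variation) was 3.04. Whether the test would find true differences at this spread is not reported, so a lack of calls does not show equal levels. DESeq of the study was not run. Gene models and sequences came from GENCODE M21 transcripts. The 10 genes, the pathway lists and the marker lists were chosen with earlier results of these data known. All 10 genes are named, pathway genes when found in at least 8 libraries or where a sentence says so, and the 5 genes with the highest Spearman's rho with the sum. Tigar and Epb42, 2 listed genes, were not matched in the tables by symbol, and some listed genes are not reported here by name. Only libraries of at least 500000 reads, and the sum without Ldhb and Tpi1, were alternatives chosen after seeing the data.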

Additional observations from a re-analysis of the deposited data

Results flagged for a closer look

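Within groups of 6 libraries, a value was marked when its gap to the nearest other value, divided by the range of the group, passed Dixon's critical value of 0.625. Of 24 groups examined, 4 were marked. Chance marks about 1 in 20 groups of normally distributed values, a rate that need not hold for groups with many zeros. Ldhb was at 831 CPM in hypertrophic replicate 4, where the next library had 75.5 CPM (ratio 0.909). Ldhb was at 21.4 CPM in dystrophic replicate 1, with 0 in the other 5 dystrophic-derived libraries (ratio 1, which 5 zeros and 1 other value always give). Eno1 was at 578 CPM in hypertrophic replicate 5, a library with reads on only 2 of the 10 genes, where the next had 115 CPM (ratio 0.802). Pgam1 was at 38.8 CPM in hypertrophic replicate 2, where the next had 13.5 CPM (ratio 0.653). The summed level and the number of genes detected gave no such value.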

How the results depend on the processing

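The number of the 10 genes called stayed at 0 in all 78 combinations of an alternative setting and a comparison. Most of these fits gave all 3 comparisons, so the 78 are not separate fits. The lowest adjusted p of any of the 10 genes in any fit was 0.206. Of 778 alternative log2 fold changes, 63 had the other sign than the reported value, 5 of them by more than its standard error, for which the cause was not tested. With the 6 crossed libraries exchanged, the log2 fold changes between hypertrophic- and dystrophic-derived libraries were 0.68 for Gapdh, 0.63 for Pgk1 and 1.59 for Eno1. With 1 library left out, Ldhb between dystrophic- and WT-derived libraries ran from -10.17, without dystrophic replicate 1, to 6.98, without WT replicate 2, and Pgam1 between hypertrophic- and WT-derived libraries from -4.69, without hypertrophic replicate 2, to 8.49, without WT replicate 3. In 3 of these 4 fits one condition had no read of the gene left, so that the value depends on the prior count.

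The mean summed CPM in dystrophic-derived libraries was 3497 relative to reads without mitochondrial and hemoglobin genes and 2164 without Ldhb and Tpi1, in both cases by construction. The share of predicted pairs at 0 was 28.6% in the 9 libraries with matching numbers and 11.3% in the 12 libraries of at least 500000 reads. Without WT replicate 1, the mean number of genes detected in WT-derived libraries was 9 in place of 6.67. Leaving out 1 library moved the mean sum from 982 to 1795 CPM in WT-, from 2659 to 2832 CPM in dystrophic- and from 1881 to 2205 CPM in hypertrophic-derived libraries, and the share at 0 from 16.7% to 22.8%. All other alternatives for the mean numbers of genes detected, the mean sums and the share at 0 moved them by less than 1 SD or within the Wilson interval. That interval takes pairs as independent and serves here only as a yardstick. Depth limits WT replicate 1 most. No paired analysis was possible because the labels number no replicates. The numbers used here follow the order of the samples and only name libraries.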
